A study of Mus musculus with 8 samples.

Results

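The genes described here are 10 factors of the cardiac cushion mesenchyme and of epithelial-to-mesenchymal transition (EMT): Snai1, Snai2, Twist1, Msx1, Msx2, Sox9, Prrx1, Tbx2, Postn and Vim. They were taken by name, and all 10 were found among the 55291 gene symbols of the count table and among the 26820 genes tested. RNA was sequenced from ventricular tissue of C57BL/6N mouse embryos at embryonic day 10.5 (E10.5), before the hearts of the groups differ in outward shape. The cKO group held 4 libraries from Pkn2 fl/fl; XMLC2-Cre+ embryos, in which Cre is active in cardiomyocytes, and the control group held 4 libraries from Pkn2 fl/fl; Cre- littermates, so every embryo carried the floxed allele. Endocardial, mesenchymal and epicardial cells lie outside the cells this Cre is meant for, and the tissue holds all of these cells together. A lower or higher value of a gene therefore cannot be told apart from fewer or more cells that express it.

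In the embryonic heart, signals from the myocardium of the atrioventricular canal and outflow tract cause endocardial cells to lose their junctions, become mesenchymal and invade the cardiac jelly. The resulting cushions later form valves and septa. Snai1, Snai2 and Twist1 are transcriptional repressors or regulators of EMT. Msx1 and Msx2 are homeobox factors induced by BMP signals, and Sox9 and Prrx1 act in the mesenchyme that results. Tbx2 keeps the canal myocardium from taking on chamber identity, Postn encodes the matrix protein periostin, and Vim encodes the intermediate filament vimentin of mesenchymal and endothelial cells.

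The promoters of 7 of the 10 genes were read from RefSeq on GRCm38.p6, as the 250 bases before the annotated start. The gene positions given further below place the starts of Msx2, Vim and Prrx1 farther upstream. The Msx2 and Vim windows lie wholly within those positions, and the Prrx1 window partly. The stretches of Snai1, Msx1, Msx2 and Twist1 are shown because they belong to the EMT regulators and to the homeobox pair whose balance is compared below. Each was searched on both strands for CAGGTG, the E-box bound by Snail and Zeb repressors, which reads CACCTG on the other strand, and for GGCGCC, a GC-rich SMAD element that reads the same on both strands. Capitals mark a match.
Snai1, chr2:167537945-167538194, plus strand: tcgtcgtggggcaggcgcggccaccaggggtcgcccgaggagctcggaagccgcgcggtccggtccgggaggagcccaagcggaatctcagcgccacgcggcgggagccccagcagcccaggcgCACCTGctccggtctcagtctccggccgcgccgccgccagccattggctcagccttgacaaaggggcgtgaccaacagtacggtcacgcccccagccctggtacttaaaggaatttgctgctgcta
Msx1, chr5:37824586-37824835, minus strand: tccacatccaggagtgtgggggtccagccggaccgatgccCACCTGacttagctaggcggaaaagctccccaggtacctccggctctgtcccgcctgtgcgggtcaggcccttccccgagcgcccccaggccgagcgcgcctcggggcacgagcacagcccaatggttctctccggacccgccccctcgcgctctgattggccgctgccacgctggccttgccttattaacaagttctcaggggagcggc
Twist1, chr12:33957421-33957670, plus strand: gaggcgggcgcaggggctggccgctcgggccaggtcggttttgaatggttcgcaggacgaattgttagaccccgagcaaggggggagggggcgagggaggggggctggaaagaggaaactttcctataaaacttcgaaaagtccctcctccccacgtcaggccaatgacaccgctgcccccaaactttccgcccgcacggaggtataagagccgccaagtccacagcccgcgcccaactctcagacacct
Msx2, chr13:53472781-53473030, minus strand: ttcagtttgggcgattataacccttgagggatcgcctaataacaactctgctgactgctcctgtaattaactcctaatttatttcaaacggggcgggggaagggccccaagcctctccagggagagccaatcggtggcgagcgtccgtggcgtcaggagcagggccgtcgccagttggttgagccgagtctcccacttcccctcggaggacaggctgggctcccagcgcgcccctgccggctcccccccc
Snai1 and Msx1 held 1 CAGGTG E-box each, which begins at −126 in Snai1 and at −210 in Msx1, counted back from the start with the last base before it as −1. The windows of Twist1, Msx2, Prrx1 and Vim and both starts of Postn held 0. Over all 32851 promoter windows of the same length, 17.2% held this E-box and 9.59% held GGCGCC, which was in 0 of the members' windows. These are matches of letters and no measurement of binding.

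Libraries held between 47559845 and 56660938 counts, and Pkn2, counted over the whole gene and not the floxed exon alone, matched the label in each of them. It was at 77.6 to 84.3 CPM (counts scaled to library size) in the cKO libraries and at 133 to 153 CPM in the controls, and its log2 fold change was −0.83 with a standard error of 0.060 (adjusted p = 7.67e-06). Positive log2 fold changes are higher in cKO throughout, and each adjusted p, unless another test is named, is edgeR's quasi-likelihood p after Benjamini-Hochberg correction over all genes tested. Of those genes, 0.858% passed the threshold of 0.05. The 4 cKO values and the 4 control values of a gene did not overlap in 6.91% of them.

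None of the 10 cushion and EMT genes passed the threshold. An unadjusted p under 0.05 was found for 2 of the 10, and for 12.8% of all genes tested. DESeq2 gave 2 as well and called 1 gene, Vim, where it called 5.46% of the 15891 genes to which it gave an adjusted p. For each of the 10, at least 1 cKO value lay within the range of the control values. Of the 10 genes, 5 were measured higher and 5 lower in cKO, between log2 fold changes of −0.34 (Msx2) and 0.20 (Vim). Their median was 0.04, where the median over all genes tested was −0.00085. The median of the 10 was 0.14 without cKO replicate 1 and −0.05 without control replicate 4.

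**Figure D1:**
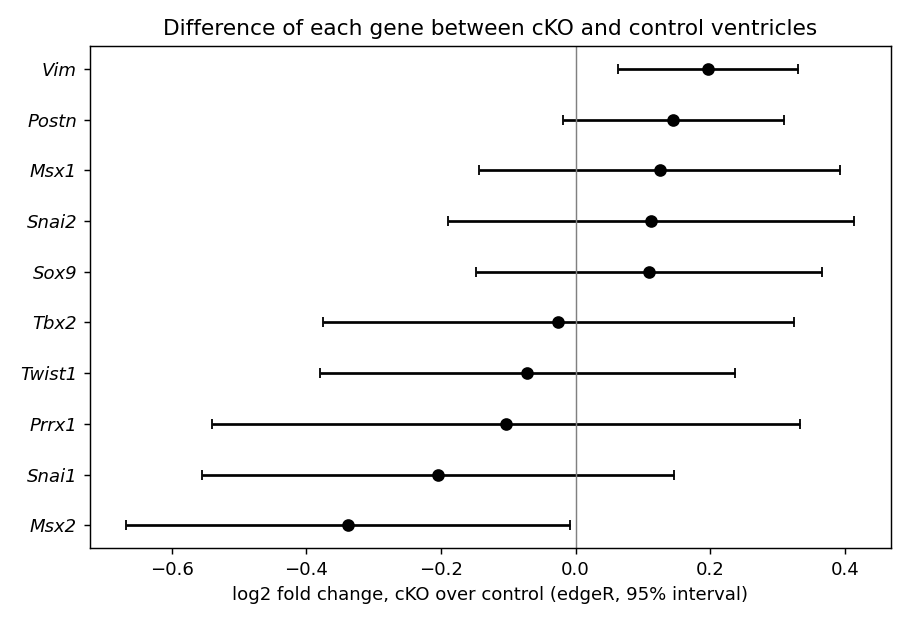
Log2 fold change of each gene, cKO over control, as points with 95% intervals from edgeR on the horizontal axis (4 libraries per group). The intervals of Vim and Msx2 lie on 1 side of 0, and those of the other 8 genes include 0.

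Levels were compared between genes as TPM, transcript levels scaled for gene length and library size. Vim stood far above the rest, with a mean of 1133 TPM over the 8 libraries, and ranked 127 of 55160 genes. Postn followed at 30.8 TPM, Twist1 at 18.003 TPM, Sox9 at 10.4 TPM, Msx1 at 10.3 TPM, Tbx2 at 9.02 TPM, Msx2 at 7.45 TPM, Snai1 at 6.25 TPM, Snai2 at 5.33 TPM and Prrx1 at 1.02 TPM. Vim, Postn and Twist1 kept this order in each of the 8 libraries, and Prrx1 was lowest in each. Neighbours in the middle were not separated by their spread: Sox9 exceeded Msx1 in 4 of 8 libraries, Msx1 exceeded Tbx2 in 5, and Snai1 exceeded Snai2 in 6.

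Among the EMT regulators, Snai1 (ENSMUSG00000042821, chromosome 2, 167538195 to 167542814 on GRCm38, plus strand) encodes a zinc finger repressor of cadherin genes. It was at 3.97, 5.71, 7.01 and 5.05 CPM in cKO replicates 1 to 4 and at 7.02, 6.22, 6.78 and 4.99 CPM in control replicates 1 to 4. The groups overlapped, with cKO replicate 1 alone below every control library. This gave a log2 fold change of −0.20 (95% interval −0.55 to 0.15, adjusted p = 0.698).

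Snai2 (ENSMUSG00000022676, chromosome 16, 14705852 to 14709385, plus strand), the Slug repressor, was at 5.64, 5.24, 6.93 and 7.46 CPM in cKO and at 5.77, 6.41, 6.36 and 4.85 CPM in controls. Here cKO replicates 3 and 4 lay above every control library, and the other two lay among them. Its log2 fold change was 0.11 (95% interval −0.19 to 0.41, adjusted p = 0.824).

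Twist1 (ENSMUSG00000035799, chromosome 12, 33957671 to 33959829, plus strand) encodes a basic helix-loop-helix factor of mesenchyme. It was at 10.9, 18.3, 20.6 and 17.7 CPM in cKO and at 19.2, 19.0, 17.5 and 15.1 CPM in controls. The lowest and the highest library were both cKO, and the group means of 16.9 ± 4.18 and 17.7 ± 1.88 CPM (SD, n = 4 each) differed by less than either spread. The log2 fold change was −0.07 (95% interval −0.38 to 0.24, adjusted p = 0.911) and turned to 0.09 (adjusted p = 0.836) without cKO replicate 1.

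Of the BMP-induced homeobox genes, Msx2 (ENSMUSG00000021469, chromosome 13, 53466884 to 53473074, minus strand) had the lowest fold change of the 10. It was at 6.13, 10.4, 12.05 and 8.44 CPM in cKO and at 11.0, 12.03, 12.8 and 10.9 CPM in controls. In cKO replicates 1, 2 and 4 it was below every control library, while cKO replicate 3 was second highest of the 8. The log2 fold change was −0.34 (95% interval −0.67 to −0.01, unadjusted p = 0.0452, adjusted p = 0.377), or 79.1% of the control level. Without cKO replicate 1 it was −0.18 (adjusted p = 0.707), and over all alternatives the adjusted p ran from 0.109 to 0.707.

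Its paralog Msx1 (ENSMUSG00000048450, chromosome 5, 37820485 to 37824583, minus strand) was at 10.4, 15.0, 11.2 and 10.4 CPM in cKO and at 9.78, 12.7, 10.7 and 9.94 CPM in controls. Only cKO replicate 2 lay above every control library. For Msx1 the log2 fold change was 0.12 (95% interval −0.14 to 0.39, adjusted p = 0.776), and −0.0076 (adjusted p = 0.990) without cKO replicate 2.

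**Figure D2:**
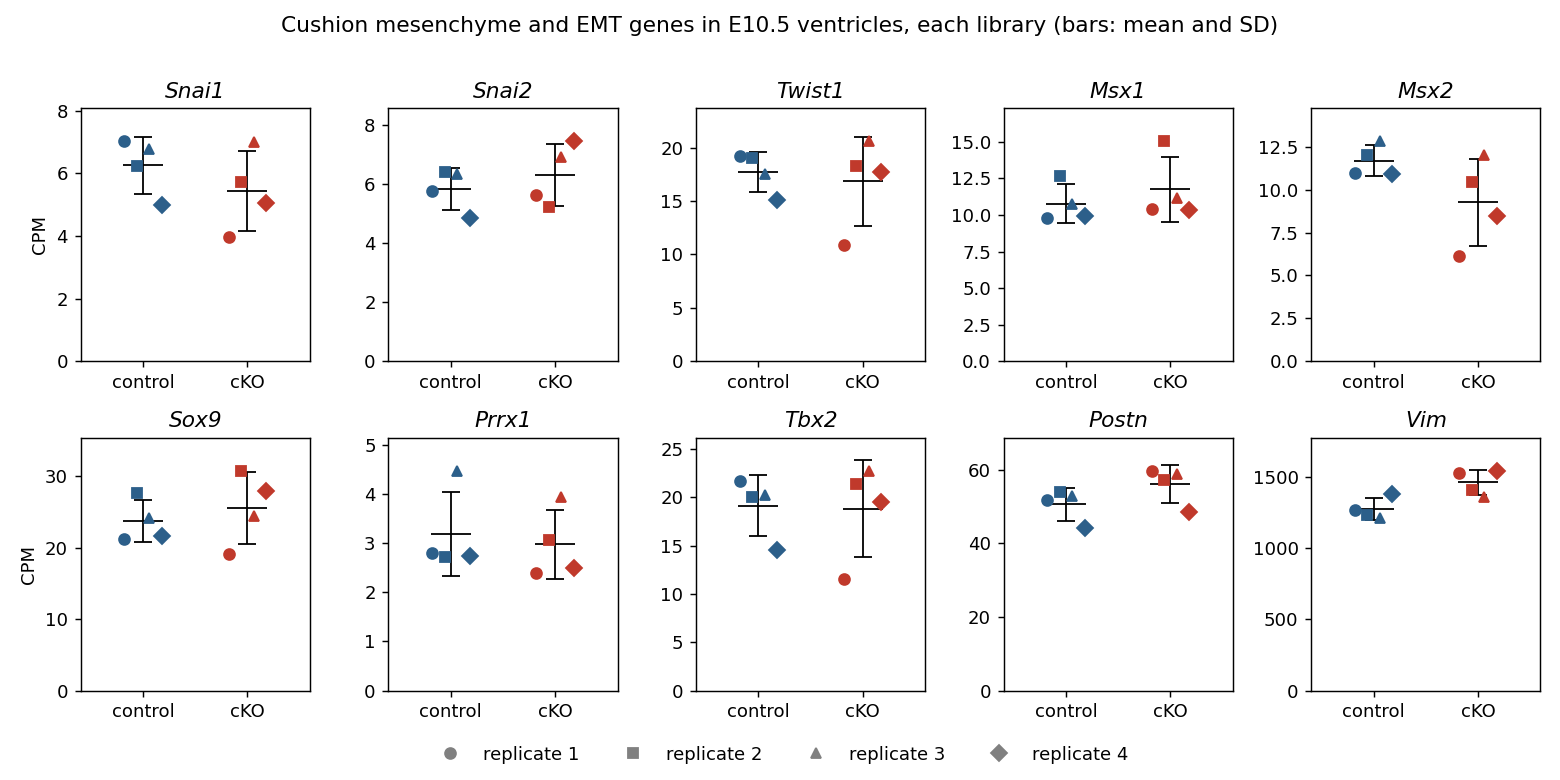
CPM of each gene (vertical axes from 0) in each control library (blue) and cKO library (red), with symbols for the replicate number and bars for the mean and SD of 4 libraries. The red circle, cKO replicate 1, is the lowest of the 8 libraries for Snai1, Twist1, Msx2, Sox9, Prrx1 and Tbx2.

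The balance of each paralog pair was compared per library on the TPM scale, as the log2 of Msx2 over Msx1 and of Snai2 over Snai1. The TPM of Msx2 was 0.467, 0.548, 0.823 and 0.652 times that of Msx1 in cKO replicates 1 to 4, and 0.887, 0.728, 0.897 and 0.871 times in control replicates 1 to 4. In 3 of 4 cKO libraries the ratio was below every control library. The mean log2 ratio was lower in cKO, with a difference of −0.47 (SD 0.35 in cKO and 0.14 in controls, n = 4 each), and it did not pass (two-sided exact permutation test, p = 0.0571, adjusted over the 2 pairs 0.114, smallest possible p 0.0286).

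For Snai2 over Snai1 the TPM ratio was 1.20, 0.747, 0.805 and 1.17 in cKO and 0.658, 0.865, 0.759 and 0.794 in controls. Snai2 exceeded Snai1 in cKO replicates 1 and 4 and in no other library. The mean log2 difference was 0.33, less than the cKO SD of 0.36 (exact permutation p = 0.229, two-sided, adjusted p = 0.229, n = 4 each).

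**Figure D3:**
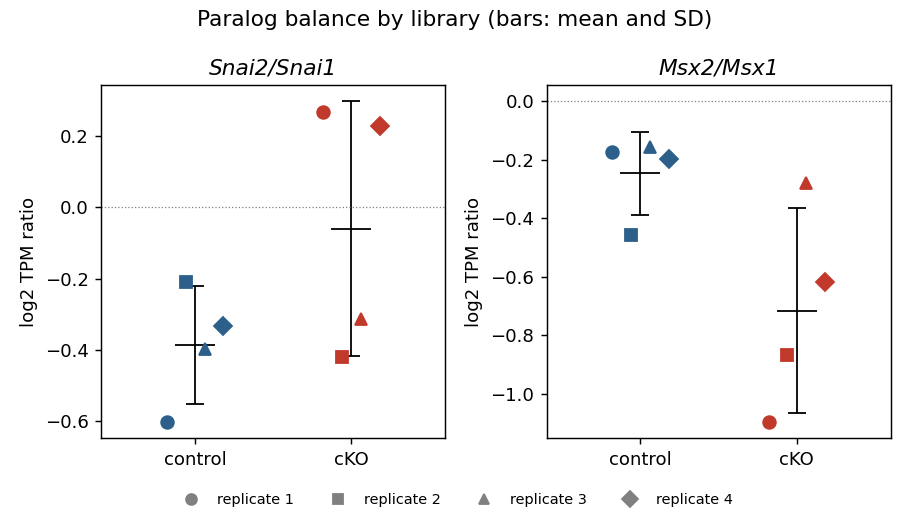
Log2 TPM ratio of Snai2 over Snai1 (left) and of Msx2 over Msx1 (right) in each library, with symbols for the replicate number and bars for the mean and SD of 4 libraries per group. The Msx2 to Msx1 ratio of 3 cKO libraries sits below the 4 controls, and cKO replicate 3 sits among them.

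Of the factors of formed mesenchyme, Sox9 (ENSMUSG00000000567, chromosome 11, 112782224 to 112787760, plus strand), needed for cushion expansion and cartilage, was at 19.1, 30.8, 24.5 and 27.96 CPM in cKO and at 21.3, 27.7, 24.2 and 21.7 CPM in controls. The cKO values reached beyond the controls on both sides. For Sox9 the log2 fold change was 0.11 (95% interval −0.15 to 0.37, adjusted p = 0.798), and 0.23 (adjusted p = 0.471) without cKO replicate 1.

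Prrx1 (ENSMUSG00000026586, chromosome 1, 163245119 to 163313710, minus strand), a homeobox gene of limb and craniofacial mesenchyme, was the least abundant, with 121 to 253 counts per library. It was at 2.40, 3.05, 3.94 and 2.50 CPM in cKO and at 2.81, 2.72, 4.47 and 2.74 CPM in controls. Replicate 3 was the highest library in each group, and the numbers do not mark shared litters in the labels. The log2 fold change of −0.10 (95% interval −0.54 to 0.33, adjusted p = 0.909) had the widest interval of the 10 and became 0.11 (adjusted p = 0.911) without control replicate 3.

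Tbx2 (ENSMUSG00000000093, chromosome 11, 85832551 to 85841948, plus strand), the canal repressor of chamber genes, was at 11.6, 21.4, 22.7 and 19.6 CPM in cKO and at 21.7, 20.1, 20.3 and 14.5 CPM in controls. Low values occurred in both groups, in cKO replicate 1 and control replicate 4. For Tbx2 the log2 fold change was −0.03 (95% interval −0.38 to 0.32, adjusted p = 0.976). Its sign turned when cKO replicate 1 (0.15), control replicate 1 (0.04), control replicate 2 (0.0059) or control replicate 3 (0.0040) was left out.

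Of the structural products, Vim (ENSMUSG00000026728, chromosome 2, 13573952 to 13582826, plus strand) was at 1531, 1411, 1363 and 1544 CPM in cKO and at 1270, 1236, 1216 and 1383 CPM in controls. In 3 of 4 cKO libraries it was above every control library, and cKO replicate 3 was below control replicate 4. For Vim the log2 fold change was 0.20 (standard error 0.063, 95% interval 0.06 to 0.33), or 115% of the control level. It had an unadjusted p of 0.00681 and did not pass the threshold over all genes (adjusted p = 0.168). It passed with DESeq2 (adjusted p = 0.0219) and without cKO replicate 3 (adjusted p = 0.0488), and its adjusted p over all alternatives ran from 0.0219 to 0.371. Its log2 fold change was between 0.17 and 0.24 under each alternative.

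Postn (ENSMUSG00000027750, chromosome 3, 54361109 to 54391037, plus strand) was at 59.6, 57.2, 58.7 and 48.4 CPM in cKO and at 51.7, 53.8, 52.9 and 44.0 CPM in controls. It too was above every control library in cKO replicates 1, 2 and 3, and replicate 4 was lowest in each group. Postn had a log2 fold change of 0.15 (95% interval −0.02 to 0.31, adjusted p = 0.463).

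The 10 genes did not vary as a single set. Snai1, Twist1, Msx2 and Tbx2 had Pearson correlations of 0.74 to 0.97 with one another over the 8 libraries, and Msx2 and Vim had one of −0.83. The library cKO replicate 1 was the lowest of 8 for 6 genes, namely Snai1, Twist1, Msx2, Sox9, Prrx1 and Tbx2, yet the highest for Postn and second highest for Vim. Across the 14302 genes of at least 1 CPM on average, cKO replicate 1 was lowest in 16.5% and cKO replicate 4 in 20.8%. Twist1 and Tbx2 had the most similar profiles, with a root-mean-square difference of 0.086 between their log2 CPM values after each was centred on its own mean over the 8 libraries. Snai1 and Twist1 differed by 0.13 and Msx1 and Sox9 by 0.14, while Msx2 and Vim were farthest apart at 0.43. The pairs share their libraries, so these distances and correlations are descriptions.

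**Figure D4:**
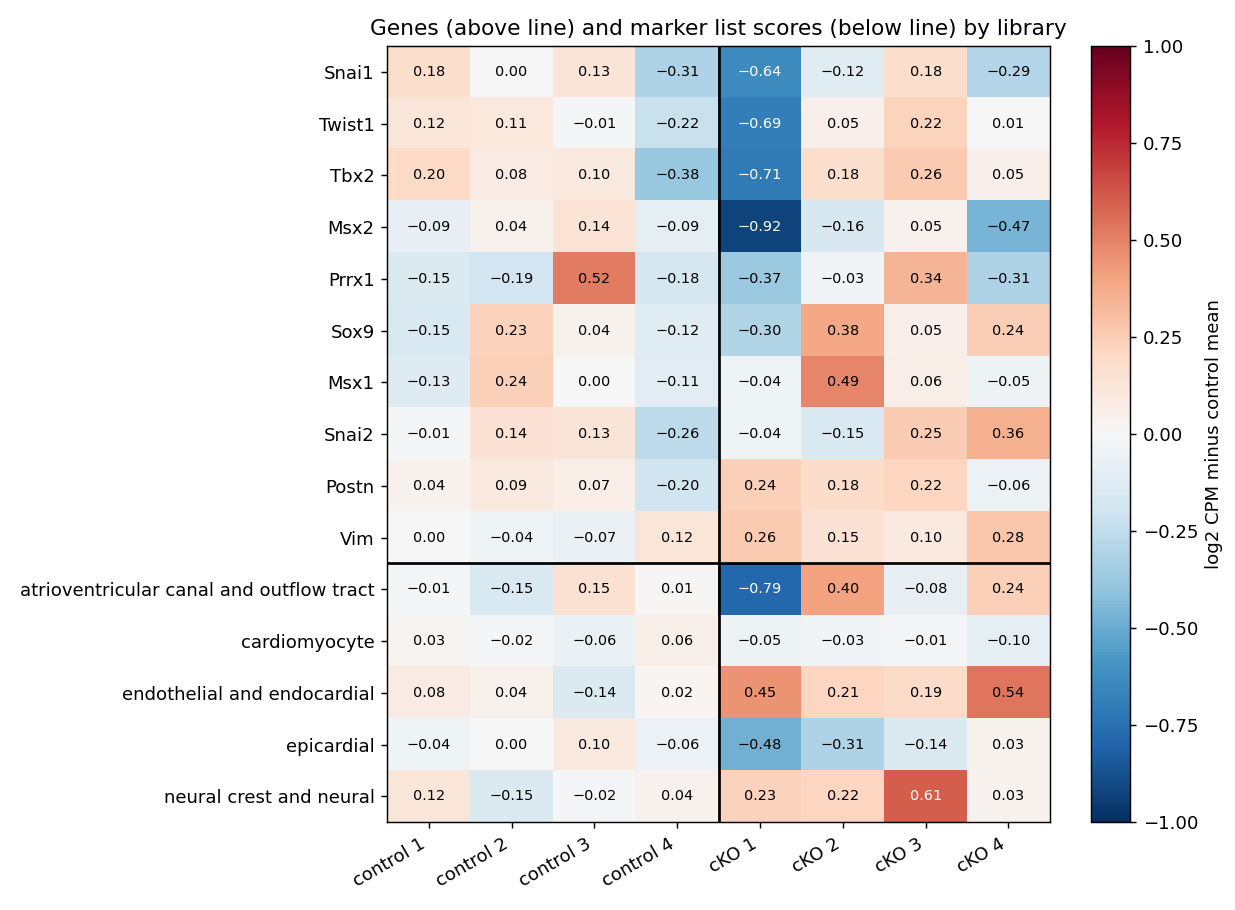
Log2 CPM relative to the control mean for each gene (rows above the line) and the mean of each marker list (rows below it) in the 4 control and 4 cKO libraries (columns), with blue for lower and red for higher values. The column of cKO replicate 1 is lowest for Msx2 (−0.92), Tbx2 (−0.71), Twist1 (−0.69), Snai1 (−0.64) and the atrioventricular canal and outflow tract markers (−0.79).

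Outside the 10, the genes of at least 10 CPM whose profile came nearest to their mean profile were C330018D20Rik, Zfp101, Spata2, Rhou and Afg1l. Their root-mean-square differences from that profile ran from 0.073 to 0.080 on the log2 scale over the 8 libraries, among 9851 candidates. None of them passed the threshold.

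Markers of other cells were read from lists, chosen with earlier results of these data known, as the mean log2 CPM of each list per library. The 10 endothelial and endocardial markers were all measured higher in cKO (median log2 fold change 0.37). Of them, 9 had an unadjusted p under 0.05, against 12.8% of all genes, and 5 passed the threshold, against 0.858%. These 5 were Emcn, Nfatc1, Cdh5, Pecam1 and Tie1, with log2 fold changes from 0.36 (Nfatc1, adjusted p = 0.0262) to 0.72 (Emcn, adjusted p = 0.0177). When 1 library was left out, each of the 5 lost its call without cKO replicate 1 or any 1 control, Cdh5, Pecam1 and Tie1 also without cKO replicate 4, and the highest adjusted p was 0.164 (Tie1). Pecam1 and Tie1 also lost theirs with filterByExpr (adjusted p = 0.0539 and 0.0590) and limma-voom (0.0633 and 0.0622), and all 5 with limma on log2 TPM (0.232 to 0.317). Where all genes stood at 5.46%, DESeq2 called 8 of the 10. Their summed level was 877 to 1168 TPM in cKO and 685 to 829 TPM in controls, highest in cKO replicates 4 and 1, the libraries in which Vim was highest as well. The list score was 0.35 higher in cKO, in 4 of 4 libraries (exact permutation p = 0.0286, two-sided and the smallest that 4 against 4 can give, adjusted over 5 lists 0.143). The part of these markers in the Vim and Postn values was not tested.

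The atrioventricular canal and outflow tract markers (Rspo3, Isl1, Tbx1, Fgf8, Fgf10, Sema3c and Wnt11) had a score of −0.79 in cKO replicate 1 relative to the control mean, and of 0.40, −0.08 and 0.24 in cKO replicates 2 to 4. Controls lay between −0.15 and 0.15. Rspo3, a Wnt co-activator, was at 6.59 CPM in cKO replicate 1 and at 13.0 to 19.2 CPM in the other 7 libraries. Fgf10, a growth factor of the outflow progenitors, was not low in that library, at 3.31 CPM against 2.55, 3.13, 2.44 and 4.01 CPM in the controls, and had a log2 fold change of 0.30 (adjusted p = 0.541). Bmp2, the myocardial cushion inducer, named here after its values were seen, was at 11.6 CPM in cKO replicate 1 and at 15.3 to 24.6 CPM in the others. For the list score, the difference between groups was −0.06 (exact permutation test, p = 0.914, adjusted p = 0.914, n = 4 each) and 0.19 without cKO replicate 1. The list's summed level was 38.3 to 51.7 TPM in cKO and 39.2 to 56.8 TPM in controls. On that scale cKO replicate 1, at 38.3 TPM, lay close to control replicates 1 and 4, at 39.2 and 39.7 TPM. The list score weighs each member alike, though Tbx1 had 10 counts in all, Fgf8 had 214 and Isl1 had 275, where Rspo3 had 5692. How far the make-up of cKO replicate 1 accounts for its low Snai1, Twist1, Msx2 and Tbx2 was not tested.

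In the remaining marker lists no gene passed. Genes at an unadjusted p under 0.05 numbered 3 of 10 cardiomyocyte, 2 of 7 epicardial, 0 of 4 neural crest and 0 of 7 canal and outflow markers, where all genes stood at 12.8%. DESeq2 called 1, 2, 0 and 0 of them, where all genes stood at 5.46%. That share covers genes to which DESeq2 gave an adjusted p, and it gave none to Sox10 and Tfap2a. Cardiomyocyte markers differed by −0.05 (adjusted p = 0.321, exact permutation test, n = 4 each), with 37978 to 39946 TPM in cKO and 37974 to 40752 TPM in controls. Of the 10, 3 were measured higher and 7 lower. Nkx2-5 and Tnni1 had log2 fold changes of −0.32 and −0.15 (adjusted p = 0.109 and 0.339), and Ttn, which encodes titin, had one of 0.20 (adjusted p = 0.351). Epicardial markers differed by −0.23 (adjusted p = 0.190, exact permutation test, n = 4 each), with 190 to 272 TPM in cKO and 241 to 266 TPM in controls, and were lowest in cKO replicate 1. Of these, Aldh1a2 and Tbx18 had log2 fold changes of −0.59 and −0.30 (adjusted p = 0.0666 and 0.104). Of the neural crest and neural markers 4 were tested, and Foxd3, with 2 counts in all, was not. That list stood at 4.04 to 6.09 TPM in cKO and 4.24 to 4.97 TPM in controls, a score difference of 0.27 (adjusted p = 0.190, exact permutation test, n = 4 each). Sox10 and Tfap2a, with 161 and 76 counts in all, had log2 fold changes of 0.66 and 0.82 (adjusted p = 0.599 and 0.607).

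Other genes of the cushion programme were taken from lists. Of 12 further EMT and mesenchyme transcription factors, 4 were measured higher and 8 lower, and none passed (3 at an unadjusted p under 0.05, against 12.8% of all genes). DESeq2 called 1 of the 12, Foxc1, where all genes stood at 5.46% (adjusted p of 0.0474, over all alternatives 0.0474 to 0.476). The median log2 fold change was −0.09. Foxc1, a forkhead factor of mesenchyme, was at 15.2, 15.3, 16.5 and 14.5 CPM in cKO and at 18.7, 20.3, 18.4 and 16.7 CPM in controls. These groups did not overlap, but the log2 fold change of −0.27 did not pass (adjusted p = 0.135). Tbx3, which acts beside Tbx2 in canal and conduction myocardium, was at 12.5, 16.8, 18.4 and 17.6 CPM in cKO and at 18.4, 19.9, 22.9 and 19.2 CPM in controls. Its cKO values lay below every control, the highest at 18.35 CPM just under the lowest control at 18.37 CPM, and the log2 fold change was −0.30 (adjusted p = 0.234).

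Of 18 cushion signals and receptors, 13 were measured higher and 5 lower (median log2 fold change 0.12). An unadjusted p under 0.05 was found for 7 of the 18, against 12.8% of all genes. Only Nrg1, the endocardial ligand of the ErbB receptors, passed the threshold. It was at 30.1, 29.0, 26.4 and 21.4 CPM in cKO and at 18.3, 20.1, 16.5 and 19.6 CPM in controls, without overlap (log2 fold change 0.52, standard error 0.10, adjusted p = 0.0218). DESeq2 called 3 of the 18 (Nrg1, Dll4 and Erbb3), where all genes stood at 5.46%. Dll4 just missed the edgeR threshold at a log2 fold change of 0.61 (adjusted p = 0.0503), with 4 cKO libraries above every control. Tgfb1, Notch1 and Vegfa were also measured higher, at 0.56, 0.49 and 0.40 (adjusted p = 0.0714, 0.0693 and 0.119). Tgfb3 was lower, at −0.28 (adjusted p = 0.182). Bmp2 was at a log2 fold change of −0.26 (adjusted p = 0.549). Nrg1 lost its call in 4 of the 8 fits that left out 1 library: cKO replicate 1 or control replicates 1, 3 or 4. The part of the higher endothelial and endocardial markers in the Nrg1 and Dll4 values was not tested.

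Of 18 matrix and adhesion genes of the cushion, 9 were measured higher and 9 lower (median log2 fold change 0.01). They ran from −0.999 (Lum, adjusted p = 0.0838) to 0.85 (Tnc, adjusted p = 0.0924). An unadjusted p under 0.05 was found for 9 of the 18, against 12.8% of all genes. Vcan, which encodes the cardiac jelly proteoglycan versican, was the only one that passed the threshold. It was at 2210, 1994, 1728 and 2092 CPM in cKO and at 1368, 1621, 1642 and 1613 CPM in controls, again without overlap (log2 fold change 0.36, standard error 0.079, adjusted p = 0.0416). It kept its call in the fit without cKO replicate 3 and lost it in the other 7. Hapln1 just missed the threshold at a log2 fold change of 0.30 (adjusted p = 0.0505), with 4 cKO libraries above every control. DESeq2 called 6 of the 18, Vcan among them, where all genes stood at 5.46%. The 6 chamber myocardium genes, a programme that Tbx2 represses in the canal, were split, with 2 higher and 4 lower and none called (3 at an unadjusted p under 0.05, against 12.8% of all genes, and DESeq2 called both of those named next, against 5.46%). Smpx and Gja1 had log2 fold changes of −0.33 and −0.34 (adjusted p = 0.0560 and 0.0820). They passed with DESeq2 (adjusted p = 0.00461 and 0.0112), and over all alternatives the adjusted p ran from 0.00332 to 0.303 for Smpx and from 0.00509 to 0.350 for Gja1.

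**Figure D5:**
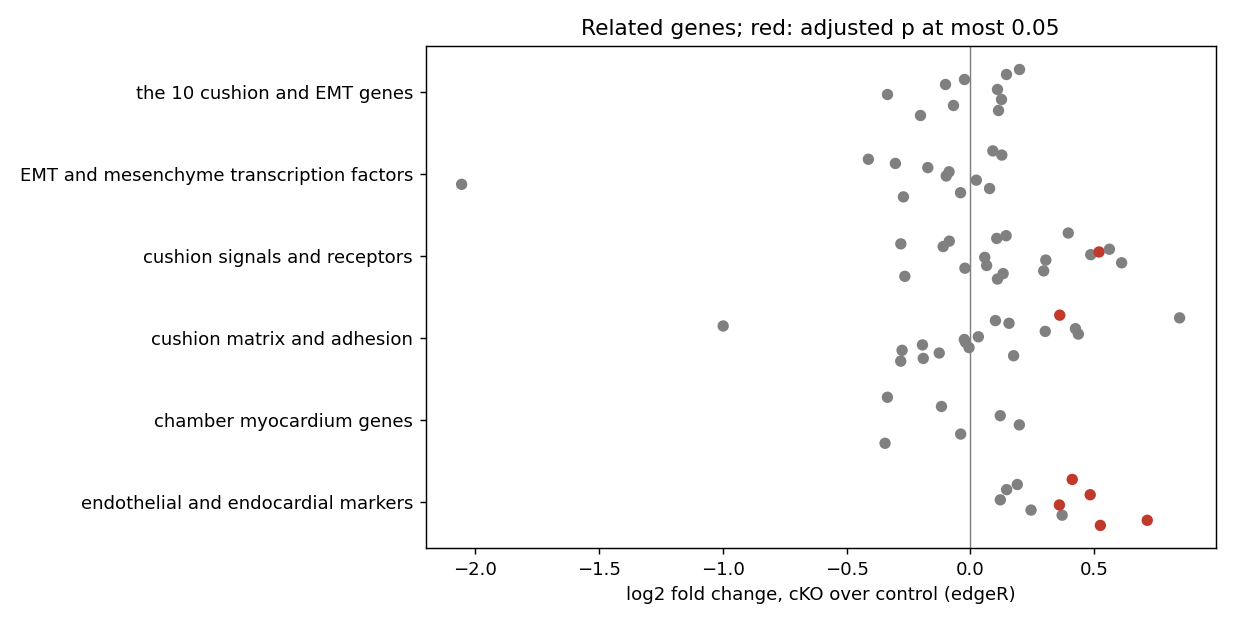
Log2 fold change (horizontal axis, cKO over control, edgeR) of the 10 cushion and EMT genes and of the tested genes of related lists, 1 point per gene, in red where the adjusted p was at most 0.05. Red points are Nrg1, Vcan and 5 endothelial markers, and the point farthest left is Meox2, which had 12 counts in all.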

How the data were processed

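RNA-seq of E10.5 ventricular tissue in 4 cKO and 4 control libraries was analysed from the files the authors deposited. The deposited counts are raw reads per gene symbol, and the deposited TPM are transcript levels scaled for gene length and library size by the authors. The paper names the nf-core/rnaseq workflow. The submitters' processing notes list FastQC, Trim Galore 0.6.7, HISAT2 2.2.1, StringTie 2.2.1, featureCounts and DESeq2. The strand setting is not given in the sources used here, and for the 10 genes the only overlapping genes were Gm20471 (0 counts) and Gm37644 (4 counts) at Prrx1. The notes name GRCm39, but 95.26% of 39080 genes in the TPM table lay within 1000 bases of their RefSeq GRCm38 start or end and 3.804% of 51731 near their GRCm39 start, so coordinates are GRCm38.

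Genes whose counts summed to 8 or more over the libraries, as in the study's methods, were tested with edgeR 4.0.16 in R 4.3.3 (quasi-likelihood F test, TMM, design with condition, Benjamini-Hochberg over all genes, threshold 0.05). CPM were scaled by TMM, and log2 CPM used a prior count of 2. Standard errors are the log2 fold change over the square root of F. Exact permutation tests were two-sided over groupings of 4 against 4 libraries, or of the libraries kept where 1 was left out. Libraries of a group differed by far more than counting error (chi-square per degree of freedom from 12.0 to 39.1). Alternatives were DESeq2 1.42.0, its size factors, filterByExpr, no filter, limma-voom (limma 3.58.1), limma on log2 of TPM plus 1 or 0.1, a block for the replicate number, removal of hemoglobin genes, and each library left out. Methods were tested on simulated data.

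The members and gene lists were chosen with earlier results of these data known. Named were the 10 genes, Pkn2, per list up to 8 called genes or else the 2 with the smallest p, and the 5 genes of at least 10 CPM nearest in profile. Bmp2, Dll4, Erbb3, Tgfb1, Notch1, Vegfa, Tgfb3, Hapln1, Lum, Tnc and Ttn were named after their values were seen.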

Additional observations from a re-analysis of the deposited data

Results flagged for a closer look

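A library stood far from the other 3 of its group in 2 of the 36 groups of 4 that were examined (10 genes, Pkn2, 5 marker lists and 2 paralog ratios in each condition), where chance marks about 1 in 20. Prrx1 in controls had a gap of 0.948 of its range, since control replicate 3 was at 4.47 CPM and the others were at 2.72 to 2.81 CPM. The log2 ratio of Msx2 to Msx1 in controls had a gap of 0.856 of its range, since control replicate 2 was at −0.46 and the others were between −0.20 and −0.16.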

How the results depend on the processing

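Of the 10 genes, 0 were called in the main test and 1 (Vim) with DESeq2. Leaving out single libraries gave 0 to 1, and the other alternatives gave 0. Signs turned only when a library was left out: Twist1 spanned −0.18 to 0.095, Msx1 −0.0076 to 0.22, Prrx1 −0.27 to 0.11 and Tbx2 −0.14 to 0.15 on the log2 scale. The cause was not tested. Same-numbered deviations over 9858 genes correlated at −0.30, −0.05, 0.04 and −0.20, and no cKO library correlated best with the control of its own number. These correlations showed no pairing by replicate number, but they cannot exclude shared litters. With the replicate block, 0 of the 10 genes, 12 related genes and 380 of all genes passed, against 2 and 230. The 4 related lists held 12 transcription factors, 18 signals, 18 matrix genes and 6 chamber genes. Of these, 4 passed the threshold with DESeq2 size factors, limma-voom or hemoglobin genes left out, and 15 with no filter. DESeq2 called 12 of them, where all genes stood at 5.46%. Limma on log2 TPM (either pseudocount) called 0, and fits with single libraries left out called 0 to 11. All genes past the threshold numbered 878 with no filter and 867 of 15891 with DESeq2. They numbered 2 and 5 with limma on log2 TPM (pseudocounts 1 and 0.1), and 67 to 744 with single libraries left out. Lowest were fits without control replicate 1 (67), control replicate 4 (69) or cKO replicate 1 (71), highest without cKO replicate 3 (744), and between were those without control replicate 3 (87) or 2 (135). The score difference of canal and outflow markers was 0.022 on log2(TPM + 1) and spanned −0.21 to 0.19 with libraries left out. Without cKO replicate 4, the endothelial, epicardial and neural crest scores passed at an adjusted p of 0.0476 each (exact permutation test). Each of these lists was at the smallest p that the remaining libraries can give, and passed only because the others were too. Their differences spanned 0.29 to 0.40, −0.31 to −0.14 and 0.16 to 0.35 with single libraries left out. Depth limits Prrx1 most, with 121 to 253 counts per library.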
